A study of Mus musculus with 4 samples.

Results

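The cytochrome P450 genes of the families Cyp2 and Cyp3a were followed in liver RNA of fasted and non-fasted mice. All protein-coding genes whose symbol starts with Cyp2 and a letter, from Cyp2a to Cyp2u, or with Cyp3a were taken, which gave 56 genes among the 27179 counted. Every one of the 56 had an entry in each library, 49 had a count in at least 1 library, and 36 passed the filter on low counts and were tested.

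Cytochrome P450 enzymes sit in the membrane of the endoplasmic reticulum and insert oxygen into drugs, steroids, fatty acids and other lipids, with electrons delivered by P450 reductase and cytochrome b5 and with heme as their cofactor. In liver they are made by hepatocytes, with several Cyp2 genes strongest around the central vein, and many are induced by the nuclear receptors CAR and PXR or depend on the sex pattern of growth hormone. Cyp2e1 is known for turning acetaminophen (APAP) into the reactive metabolite NAPQI, the first step of the liver injury that the study addressed.

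Bulk RNA sequencing covered 2 libraries titled as fasted and 2 titled as not fasted, and the comparison asked how liver gene expression differs with food before any APAP was given. According to the labels, all 4 came from liver of male wild-type C57BL/6 mice. Fasting ran overnight with free water, and non-fasted controls kept free access to food. Ages are not given in the labels. Nothing in the labels or methods connects single libraries with single animals. The p-values therefore describe variation among libraries, and that variation could be technical.

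The 2 groups did not hold RNA of the same make-up, and this touches every comparison. Total counts were 13528015 and 13541405 in the fasted libraries and 36943535 and 36975921 in the non-fasted libraries. Of 14 markers of placental trophoblast, the sum was 6 and 8 counts in the fasted libraries against 2465614 and 2484193 in the non-fasted libraries, with Synb at 0 throughout. Xist, an RNA made from the inactivated X of female cells, had 2 and 1 counts against 25772 and 26316, although the labels give male. A separate treatment field names fasting for all 4 samples, and the titles were used for the groups. The 14 hepatocyte markers, such as albumin, summed to 1880965 and 1881401 counts with fasting and to 2077205 and 2062898 counts without. Hepatocyte RNA was thus present at similar raw counts in all 4 libraries, and as 13.9% of all fasted counts against 5.58 to 5.62% of the non-fasted.

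Therefore 2 scalings are given beside each other. The first is the median of ratios over all tested genes, the default of the tool the submitters name, which sets the libraries equal over the tested genes as a whole. The second sets the geometric mean of the 14 hepatocyte markers equal, and asks how a P450 gene moved against other hepatocyte RNA. It shifts the median over all genes by -1.85 on the log2 scale. In bulk tissue fewer cells of a type and less RNA per cell cannot be told apart under either.

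Under the median of ratios, 34 of the 36 tested Cyp2 and Cyp3a genes were higher in the fasted libraries and 2 were lower (edgeR adjusted p under 0.05). Over all 15470 genes tested 37.4% were higher and 45.3% lower. The median log2 fold change of the 36 was 1.87, beside -0.13 over all genes and 1.77 over the hepatocyte markers, all 14 of which were also higher. Scaled to those markers, 14 of the 36 genes were higher, 13 were lower and 9 did not pass, around a median of 0.02, where 3.96% of all genes were higher and 91.7% lower with a median of -1.98. Counted gene by gene, 14 were higher under both scalings, 2 were lower under both, 11 turned from higher to lower, and 9 were higher only under the median of ratios. The hepatocyte markers themselves ran from -0.25 to 0.41 when scaled to their own mean. Of the P450 genes 17 lay inside that range, 7 above it and 12 below it.

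**Figure D1:**
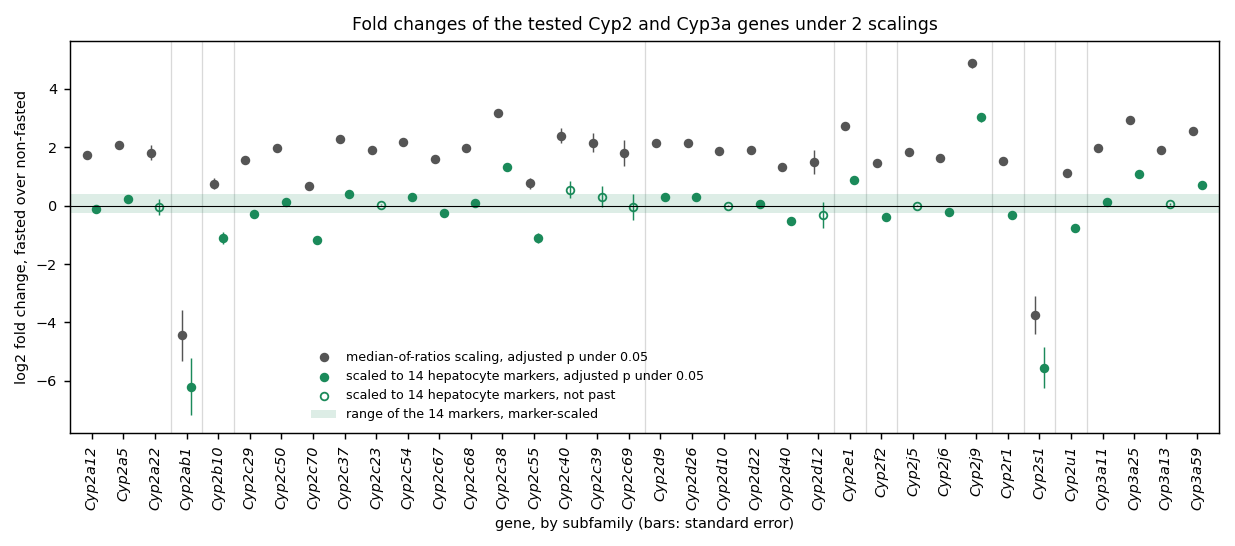
Log2 fold changes, fasted over non-fasted, of the 36 tested genes in order of subfamily, with grey points for the median of ratios and green points for scaling to 14 hepatocyte markers. Bars are standard errors and the green band is the range of the markers (-0.25 to 0.41). Most green points lie in or near the band, with Cyp2j9, Cyp2c38, Cyp3a25 and Cyp2e1 above it and Cyp2c70, Cyp2b10, Cyp2c55, Cyp2s1 and Cyp2ab1 below it.

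The make-up of the P450 RNA can be read without any scaling, as each gene's share of the summed counts of the 56 genes within a library. That sum was 342820 and 342597 counts with fasting and 300713 and 297333 without. Cyp2e1 alone took 35.4% of it in both fasted libraries (Wilson 95% intervals 35.2 to 35.6% and 35.3 to 35.6%) and 23.7% and 23.4% in the non-fasted libraries (23.5 to 23.8% and 23.3 to 23.6%). The Cyp2c subfamily took 13.8% and 14% against 19.6% and 19.6%, and the single gene of Cyp2f took 5.4% and 5.42% against 8.69% and 8.72%. Cyp3a stood at 23.8% and 23.6% against 24.1% and 24.1%, and Cyp2d at 15% and 15% against 15.8% and 15.7%. The share of Cyp2e1 was thus larger and those of Cyp2c and Cyp2f2 smaller in the fasted libraries, by more than the paired libraries differed, while the shares of Cyp3a and Cyp2d differed by under 1 percentage point. Intervals cover counting error only, and shares of 1 sum move against each other.

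**Figure D2:**
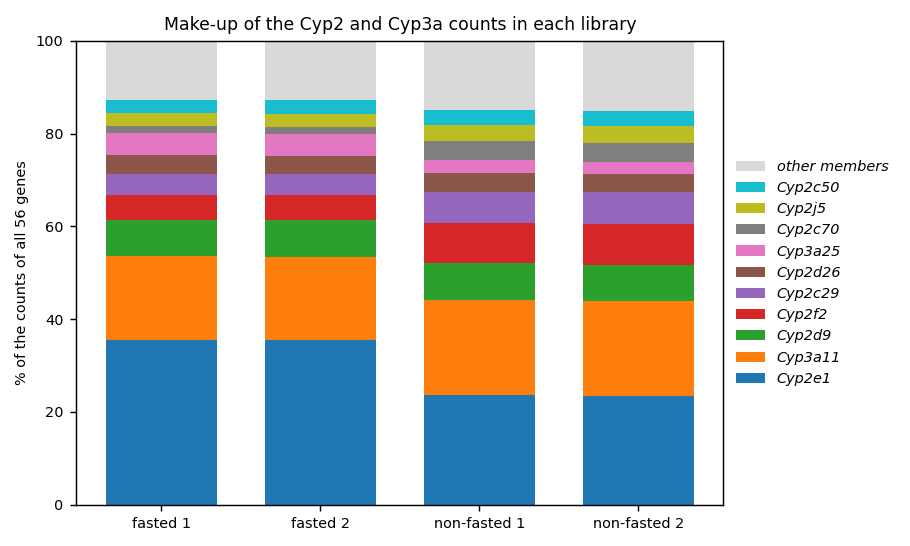
Share of the counts of all 56 genes, in percent, taken by the 10 most counted members in each of the 4 libraries. Bars are single libraries with no error bar. The Cyp2e1 segment reaches 35.4% in the fasted libraries against 23.4 and 23.7% in the non-fasted, while the Cyp3a25 segment is larger and the Cyp2c70 and Cyp2f2 segments are smaller in the fasted libraries.

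Sequences upstream of 5 genes on which the results turn are shown here, since several of these genes belong to tandem copies whose reads and control regions resemble each other. Each run holds the 250 bases before the first listed start site from RefSeq (GRCm38.p6), read on the strand of the gene. Capitals mark the half-site of nuclear receptors (AGGTCA or its reverse complement TGACCT), an element of the HNF4 type (CAAAGTCCA or TGGACTTTG) and the TATA box (TATAAA or TTTATA). No matches overlap in these 5 runs.
Cyp2e1, chr7:140763569-140763818, plus strand: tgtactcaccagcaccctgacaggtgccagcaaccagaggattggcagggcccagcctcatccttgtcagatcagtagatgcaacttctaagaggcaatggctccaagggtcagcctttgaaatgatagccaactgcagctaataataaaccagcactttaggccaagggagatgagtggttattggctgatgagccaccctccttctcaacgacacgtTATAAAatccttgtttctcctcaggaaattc
Cyp3a11, chr5:145879855-145880104, minus strand: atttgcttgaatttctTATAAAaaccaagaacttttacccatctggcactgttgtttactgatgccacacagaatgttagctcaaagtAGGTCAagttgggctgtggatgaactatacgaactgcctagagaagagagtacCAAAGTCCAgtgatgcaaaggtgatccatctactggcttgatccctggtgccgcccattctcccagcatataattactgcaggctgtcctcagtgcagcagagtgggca
Cyp3a25, chr5:146009619-146009868, minus strand: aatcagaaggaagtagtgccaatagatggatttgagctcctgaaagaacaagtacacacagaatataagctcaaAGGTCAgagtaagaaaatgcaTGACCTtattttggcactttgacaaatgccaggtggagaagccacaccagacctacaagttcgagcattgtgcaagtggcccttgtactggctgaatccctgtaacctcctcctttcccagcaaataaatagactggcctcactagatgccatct
Cyp3a59, chr5:146079008-146079257, plus strand: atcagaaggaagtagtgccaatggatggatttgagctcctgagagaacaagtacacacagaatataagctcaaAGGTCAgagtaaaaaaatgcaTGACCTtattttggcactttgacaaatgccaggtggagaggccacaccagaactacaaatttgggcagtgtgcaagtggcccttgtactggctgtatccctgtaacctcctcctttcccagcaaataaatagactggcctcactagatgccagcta
Cyp2c70, chr19:40187287-40187536, minus strand: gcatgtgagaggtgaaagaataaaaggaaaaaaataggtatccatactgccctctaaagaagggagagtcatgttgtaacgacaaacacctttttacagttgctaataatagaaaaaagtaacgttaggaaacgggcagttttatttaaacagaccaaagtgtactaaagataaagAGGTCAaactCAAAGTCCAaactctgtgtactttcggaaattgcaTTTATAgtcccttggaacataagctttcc
Cyp3a25 and Cyp3a59 were identical at 238 of 249 aligned bases (95.6%), both with the half-site in each orientation, against 67.8% between Cyp3a25 and Cyp3a11. Of the 56 genes 49 had an upstream sequence in the table. Among these the half-site was found in 15 (30.6%), the HNF4-type element in 10 (20.4%) and the TATA box in 23 (46.9%), beside 13.8%, 0.381% and 13% of all 27025 upstream sequences of this length. The 10 with the HNF4-type element were Cyp2c40, Cyp2c65, Cyp2c67, Cyp2c68, Cyp2c69, Cyp2c70, Cyp3a11, Cyp3a16, Cyp3a41a and Cyp3a41b. These are letter matches at any position on either strand, in near-copies of 1 another, and mark no binding. The TATA matches of Cyp2e1, Cyp2c70 and Cyp3a11 began 31, 29 and 234 bases before the start site, so a match need not be a working TATA box.

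Cyp2e1 (Entrez 13106) was the most counted of the 56 genes. It had 121355 and 121431 counts with fasting and 71143 and 69700 without. Both fasted libraries lay above both non-fasted libraries even before the greater depth of the latter was taken into account. Normalized by the median of ratios, this was 238925 ± 747 against 35780 ± 500 (SD, n = 2 each), a log2 fold change of 2.74 (SE 0.0107, edgeR adjusted p = 8.9e-17). Against the hepatocyte markers it was 1.85-fold higher, at a log2 fold change of 0.88 (SE 0.01, edgeR adjusted p = 6e-27), above each of the 14 markers. Per kilobase of its longest coding transcript, the level on the marker scale was 68521 counts in the fasted and 37131 in the non-fasted group, the highest of all members in both. Only 4.76% of the 50-base windows of that transcript occur in another gene.

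Cyp3a, the subfamily of the broadest drug metabolism and the best known PXR targets, had 9 members, of which 4 were tested. Cyp3a11 (Entrez 13112), the main Cyp3a enzyme of mouse liver, had 62377 and 61679 fasted and 61390 and 61030 non-fasted counts. These raw counts differed by little, and the log2 fold change was 1.97 (SE 0.00986, edgeR adjusted p = 3.1e-16) by the median of ratios and 0.12 (SE 0.0107, edgeR adjusted p = 5.3e-10) against the markers, inside their range. Cyp3a25 (Entrez 56388) had 16320 and 16114 against 8269 and 8050 counts. It was 2.13-fold higher on the marker scale, at a log2 fold change of 1.09 (SE 0.017, edgeR adjusted p = 2.1e-24), and 2.94 by the median of ratios. Its near-copy Cyp3a59 had 788 and 722 against 498 and 487 counts, with log2 fold changes of 0.71 (SE 0.0612, edgeR adjusted p = 1.5e-10) and 2.57. The pair with nearly identical upstream sequence therefore stood higher in the fasted libraries under both scalings, with Cyp3a25 the more abundant. Of their transcripts 26.8% and 28% of windows are shared with other genes, and how reads fitting both were counted is not given in the sources. Cyp3a13 had 2192 and 2165 against 2310 and 2149 counts, and its log2 fold change of 1.92 by the median of ratios was 0.06 and not past the test against the markers (edgeR adjusted p = 0.0728), which it passed without non-fasted library 1, at 0.11.

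Cyp2c was the largest subfamily, with 15 members and 13 tested. All 13 were higher by the median of ratios, as were 37.4% of all genes tested and all 14 hepatocyte markers. On the marker scale 5 were higher, 4 were lower and 4 did not pass, over log2 fold changes of -1.19 to 1.32. Of all genes tested, 3.96% were higher and 91.7% lower on that scale. Cyp2c29 (Entrez 13095), a CAR target and the most counted of them, had 15405 and 15592 fasted against 20403 and 20271 non-fasted counts. Its log2 fold change was 1.56 by the median of ratios and -0.29 against the markers (SE 0.0146, edgeR adjusted p = 7.6e-15). Cyp2c70 (Entrez 226105), which makes muricholic acids from chenodeoxycholic acid in the mouse, had 4999 and 5105 against 12430 and 12312 counts. It had the lowest fold of the subfamily under both scalings, 0.66 by the median of ratios (SE 0.0185, edgeR adjusted p = 1.3e-10) and -1.19 against the markers (SE 0.019, edgeR adjusted p = 2.8e-24), and its sequence shares no window with another gene.

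At the other end of the subfamily, Cyp2c38 had 364 and 343 fasted against 157 and 145 non-fasted counts. Its log2 fold change was 3.18 by the median of ratios and 1.32 against the markers (SE 0.0985, edgeR adjusted p = 6.5e-12), a 2.5-fold difference. Cyp2c37, Cyp2c54 and Cyp2c50 were higher under both scalings, by 0.41, 0.31 and 0.13 on the marker scale, from 4982 and 5036 against 4095 and 3951 counts for Cyp2c37 to 10211 and 10226 against 10024 and 9967 for Cyp2c50. Cyp2c68 also passed, at 0.10 (edgeR adjusted p = 0.0219), but not without fasted library 2, non-fasted library 1 or non-fasted library 2, at 0.09, 0.08 and 0.12. Cyp2c67 was lower against the markers, at -0.25, and Cyp2c55, at 60 and 43 against 116 and 120 counts, was lower at -1.10, while both were higher by the median of ratios at 1.60 and 0.76. The call of Cyp2c55 by the median of ratios was lost under total counts and without fasted library 1 or non-fasted library 1, at 0.53 and 0.72. Cyp2c23, an arachidonic acid epoxygenase, gave 0.03 against the markers and 1.89 by the median of ratios. The scarce Cyp2c39, Cyp2c40 and Cyp2c69 had 7 to 29 counts per library and did not pass on the marker scale, at 0.31, 0.55 and -0.04. Cyp2c40, Cyp2c69, Cyp2c67 and Cyp2c68 share 72.1%, 54.8%, 52.8% and 43.3% of their windows with other genes, and their counts are uncertain where reads fit several copies. Of the 2 not tested, Cyp2c65 had a single count and Cyp2c66 none.

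**Figure D3:**
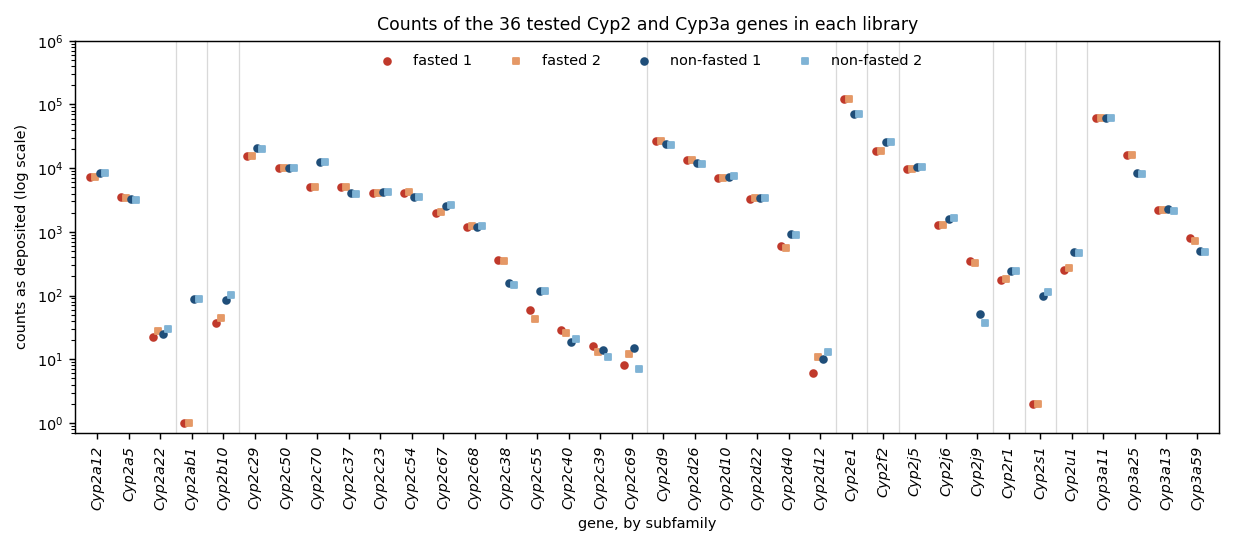
Counts as deposited, on a log axis, of the 36 tested genes in each library, in order of subfamily and then of abundance. Red and orange are the fasted and dark and light blue the non-fasted libraries. Levels run from 1 count for Cyp2ab1 to 121431 for Cyp2e1, replicate points of abundant genes coincide, and for many genes such as Cyp3a11, Cyp2d10 and Cyp2j5 all 4 points do.

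Cyp2d, a subfamily of steroid and drug hydroxylases, had 8 members and 6 tested. Cyp2d9 (Entrez 13105), a testosterone hydroxylase known for its male bias, had 26948 and 26981 fasted and 23784 and 23386 non-fasted counts. Its log2 fold change was 2.15 (SE 0.0127, edgeR adjusted p = 9e-16) by the median of ratios and 0.29 (SE 0.0132, edgeR adjusted p = 1.3e-15) against the markers. Within the P450 sum its share stayed between 7.86% and 7.91% in all 4 libraries. Cyp2d26 moved alike, from 13669 and 13528 against 11947 and 11561 counts, at 2.16 and 0.31. Cyp2d22 gave 0.06 on the marker scale (edgeR adjusted p = 0.0448), a call lost when any 1 library was left out (0.05 to 0.06), and Cyp2d10, at 6891 and 6942 against 7290 and 7494 counts, gave 0.00 there and 1.86 by the median of ratios. Cyp2d40 was the only member of the subfamily called lower against the markers, at -0.53 (SE 0.0539, edgeR adjusted p = 2.7e-09) from 598 and 566 against 914 and 891 counts, and it was higher at 1.32 by the median of ratios. Cyp2d12 had 6 to 13 counts per library, with a log2 fold change of -0.33 that did not pass against the markers.

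Cyp2a had 4 members and 3 tested. Cyp2a12, the most counted, had 7236 and 7151 against 8381 and 8370 counts, with log2 fold changes of 1.73 by the median of ratios and -0.12 against the markers (edgeR adjusted p = 2.2e-06). Cyp2a5 (Entrez 13087), the coumarin hydroxylase, had 3575 and 3423 against 3250 and 3166 counts and was higher under both, at 2.08 (SE 0.0274, edgeR adjusted p = 2.5e-13) and 0.22 (SE 0.0274, edgeR adjusted p = 8e-08). Cyp2a22, at 22 to 30 counts, gave -0.04 on the marker scale, not past the test. Cyp2a4, a steroid hydroxylase of female mice whose upstream sequence was 98.4% identical to that of Cyp2a5, had 5 and 7 against 2 and 2 counts and was not tested. With 31% of Cyp2a5 windows shared with Cyp2a4, and 40.8% with any other gene, reads of the pair may have been split.

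Cyp2b, the subfamily best known for induction by CAR, was nearly silent, with 1 of its 5 members tested. Cyp2b10 (Entrez 13088) had 37 and 44 fasted against 84 and 103 non-fasted counts. The log2 fold change was 0.75 by the median of ratios (SE 0.193, edgeR adjusted p = 0.00564) and -1.11 against the markers (SE 0.197, edgeR adjusted p = 9.5e-06), so its direction rests on the scaling. By total counts it was not called, nor by the median of ratios without fasted library 1 or 2, at 0.90 and 0.64. Cyp2b9 had 3 and 4 against 5 and 7 counts, Cyp2b19 had 0 and 0 against 2 and 2, and Cyp2b13 and Cyp2b23 had none.

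Cyp2f2 (Entrez 13107), the naphthalene-oxidizing enzyme of lung airways and of hepatocytes near the portal vein, had 18516 and 18576 fasted against 26135 and 25921 non-fasted counts. Every fasted library was below every non-fasted one in raw counts. The log2 fold change was 1.46 by the median of ratios (SE 0.0126, edgeR adjusted p = 1e-14) and -0.39 against the markers (SE 0.0135, edgeR adjusted p = 7.4e-18), below all 14 of them. The 6 members listed as pericentral, Cyp2e1, Cyp2c29, Cyp2c37, Cyp2c50, Cyp2c54 and Cyp2a5, were all higher by the median of ratios, as were 37.4% of all genes tested. On the marker scale 5 were higher and Cyp2c29 was lower, with a median of 0.27, beside 3.96% higher and 91.7% lower over all genes. Whether the difference between these members and Cyp2f2 follows position in the lobule was not tested, and 1 periportal gene cannot stand for a zone.

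Cyp2j, a subfamily of fatty acid epoxygenases, had 7 members and 3 tested. Cyp2j5 (Entrez 13109), the main one of liver, had 9546 and 9804 against 10469 and 10454 counts, with log2 fold changes of 1.84 (SE 0.018, edgeR adjusted p = 2.7e-14) by the median of ratios and -0.01 against the markers, not past the test (edgeR adjusted p = 0.441). Cyp2j6 gave 1.63 and -0.22. Cyp2j9 (Entrez 74519) had the largest rise of all 36 tested genes under both scalings, with 348 and 329 fasted against 52 and 37 non-fasted counts. Its log2 fold change was 4.87 (SE 0.168, edgeR adjusted p = 5.9e-11) by the median of ratios and 3.02 (SE 0.168, edgeR adjusted p = 8.4e-16) against the markers, an 8.12-fold difference, and none of its windows occurs in another gene. The untested Cyp2j8 and Cyp2j11 had 3 and 8 counts and 1 and 3 counts in the fasted libraries and 0 in both non-fasted, which allows up to 3 counts per library, and Cyp2j12 and Cyp2j13 had none anywhere.

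Among the single-gene subfamilies, Cyp2r1, a vitamin D hydroxylase, had 176 and 182 against 240 and 243 counts, with log2 fold changes of 1.52 by the median of ratios and -0.33 against the markers (edgeR adjusted p = 0.00283). Cyp2u1, a fatty acid hydroxylase of many tissues, had 249 and 274 against 477 and 462 counts, at 1.11 and -0.75 (edgeR adjusted p = 5.5e-09). Cyp2g1 had 5 to 9 and Cyp2t4 had 1 to 5 counts per library, and neither was tested.

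Cyp2s1 and Cyp2ab1 were the 2 members lower in the fasted libraries under both scalings. Cyp2s1 (Entrez 74134), a P450 of epithelia outside the liver, had 2 and 2 fasted against 99 and 114 non-fasted counts. On the marker scale the non-fasted level was 49.7 times the fasted level (exact 95% counting interval 19.1 to 184), and 13.7 times by the median of ratios (5.29 to 50.9, edgeR adjusted p = 1e-05). Cyp2ab1 (Entrez 224044) had 1 and 1 against 87 and 89 counts, a ratio of 82.2 on the marker scale (22.4 to 684) and 22.7 by the median of ratios (6.2 to 189, edgeR adjusted p = 7.5e-06). Both genes went in the direction of the trophoblast and cholangiocyte markers, but not of the Kupffer cell markers. That direction was shared by 45.3% of all genes tested by the median of ratios and by 91.7% on the marker scale. The trophoblast markers tested, 12 of 14, were all lower in the fasted libraries under both scalings. So were all 5 cholangiocyte markers, at sums of 575 and 495 against 15137 and 15036 counts, and 4 of 6 endothelial markers. The other endothelial markers, Stab2 and Clec4g, were higher by the median of ratios at 1.53 and 2.22. On the marker scale they gave -0.33 and 0.36. Whether the cholangiocyte and endothelial markers came from liver or placental cells was not tested. The part of the marked cell types in the counts of Cyp2s1 and Cyp2ab1 was not tested either. All 6 Kupffer cell markers were higher by the median of ratios, and 5 of them also on the marker scale.

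The members known to be female-biased in mouse liver, 10 in number, summed to 86 and 98 counts with fasting and 128 and 148 without. Leaving out Cyp2b10, a CAR target as well, the sums were 49 and 54 against 44 and 45, and no other of the 10 had more than 29 counts in a library. Cyp3a16 had 2 and 1 against 0 and 4 counts, Cyp3a44 had 2 and 4 against 3 and 4, and Cyp3a41a and Cyp3a41b had none in any library, though 98.6% and 93.5% of their windows are shared with other genes and how such reads were counted is not given in the sources. A count of 0 allows up to 3 counts in a library. Male-biased Cyp2d9 had at least 23386 counts in every library. All 12 male-biased liver genes of a separate list were higher by the median of ratios, as were 37.4% of all genes tested. On the marker scale 4 were higher and 7 lower, beside 3.96% higher and 91.7% lower over all genes. The matching list of 9 female-biased liver genes outside these families summed to 112 and 119 counts with fasting and 1875 and 1928 without. Of its 4 tested genes, Prom1 (4 and 9 against 1298 and 1365 counts), Ntrk2 (57 and 49 against 448 and 440) and Cux2 (0 and 2 against 43 and 41) were lower in the fasted libraries under both scalings. Over all genes tested 45.3% were lower by the median of ratios and 91.7% on the marker scale. Tox was higher by the median of ratios at 1.49 and did not pass on the marker scale, at -0.36. The female-biased P450 genes were thus scarce in both groups, whereas Xist and those 3 genes of the other list were higher in the non-fasted libraries. How much of the counts of those 3 genes came with the trophoblast RNA was not tested.

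By level per kilobase of transcript on the marker scale, the order in the fasted group was Cyp2e1, Cyp3a11 (27379 counts), Cyp2d9 (16296), Cyp2f2 (10283), Cyp2c29 (8994), Cyp3a25 (8389) and Cyp2d26 (8276). In the non-fasted group Cyp3a11 (25239) again followed Cyp2e1, and next came Cyp2f2 (13481), Cyp2d9 (13315), Cyp2c29 (11024), Cyp2c70 (6964) and Cyp2d26 (6682), with Cyp3a25 at 3943. Cyp2c70 stood at 3044 in the fasted group. The level of Cyp3a25 was higher and that of Cyp2c70 lower in the fasted group. Transcript lengths come from another annotation than the counting used, so close neighbours in this order are not ranked.

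P450 enzymes depend on partners that supply electrons and heme. Of 15 genes for electron donors and heme, 13 were higher and 2 lower by the median of ratios, with a median of 0.90. By that scaling 37.4% of all genes tested were higher and 45.3% lower, with a median of -0.13. On the marker scale 2 of the 15 were higher and 12 lower, with a median of -0.96. Over all genes 3.96% were higher and 91.7% lower there, with a median of -1.98. The count of lower calls therefore does not set this list apart from the other genes. Por, the P450 reductase that serves all microsomal P450 enzymes, had 2092 and 2131 fasted against 5765 and 5648 non-fasted counts, at log2 fold changes of 0.52 and -1.34 (edgeR adjusted p = 1.3e-08 and 9.7e-23). Cyb5a, the cytochrome b5 of the endoplasmic reticulum, had 17269 and 17355 against 18093 and 18476 counts and gave 1.87 and 0.02, not past the test on the marker scale. Alas1, the first and rate-limiting enzyme of heme synthesis, had 7511 and 7503 against 4127 and 4101 counts and was higher under both, at 2.82 and 0.97 (edgeR adjusted p = 1.4e-15 and 8.2e-22). Cpox, a later enzyme of that pathway, was the other gene higher under both, at 2.17 and 0.32. Pgrmc1, a heme-binding partner of P450 enzymes and the most counted of the list, gave 1.77 and -0.08.

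Cyb5r3, a reductase of cytochrome b5, and Hmox1, which breaks heme down, were lower under both scalings. Hmox1 had 242 and 246 fasted against 5659 and 5494 non-fasted counts, at -2.56 and -4.42 (edgeR adjusted p = 2.4e-12 and 1.2e-28), and Cyb5r3 gave -0.38 and -2.24. Most genes of this list are used by many cell types, and the part of the trophoblast RNA in their non-fasted counts was not tested.

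Of 15 transcriptional regulators of P450 genes, 14 were higher and 1 lower by the median of ratios, with a median of 2.18. By that scaling 37.4% of all genes tested were higher and 45.3% lower, and all 14 hepatocyte markers were higher, with a median of 1.77. On the marker scale 8 of the 15 regulators were higher and 4 lower, with a median of 0.33. Over all genes 3.96% were higher and 91.7% lower there. Nr1i3, the gene of CAR, had 2793 and 2625 fasted against 638 and 684 non-fasted counts and the largest rise of the list under both scalings, 3.99 and 2.13 (edgeR adjusted p = 5.9e-14 and 3.6e-22). The members named above as CAR targets gave 0.75 and -1.11 (Cyp2b10) and 1.56 and -0.29 (Cyp2c29). No full list of CAR targets was made, and whether such targets follow Nr1i3 was not tested. The remaining Cyp2 members were not sorted by CAR dependence and may hold further CAR targets. Among them, Cyp2c37 (2.27 and 0.41) and Cyp2a5 (2.08 and 0.22) were higher under both scalings. Nr1i2, the gene of PXR, gave 2.26 and 0.40, beside 1.97 and 0.12 for its target Cyp3a11. Ppara, the fatty acid sensor of the fasting response, gave 2.87 and 1.01, and Hnf4a, the most counted regulator in the fasted libraries, 2.06 and 0.20, from 9139 and 9158 against 8606 and 8411 counts. Rxra, the partner of several nuclear receptors and the most counted regulator in the non-fasted libraries, gave 1.66 and -0.20 from 7285 and 7201 against 8982 and 8823 counts. Bcl6, a repressor tied to sex-biased liver genes, was lower under both, at -0.68 and -2.53 from 83 and 83 against 505 and 523 counts.

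**Figure D4:**
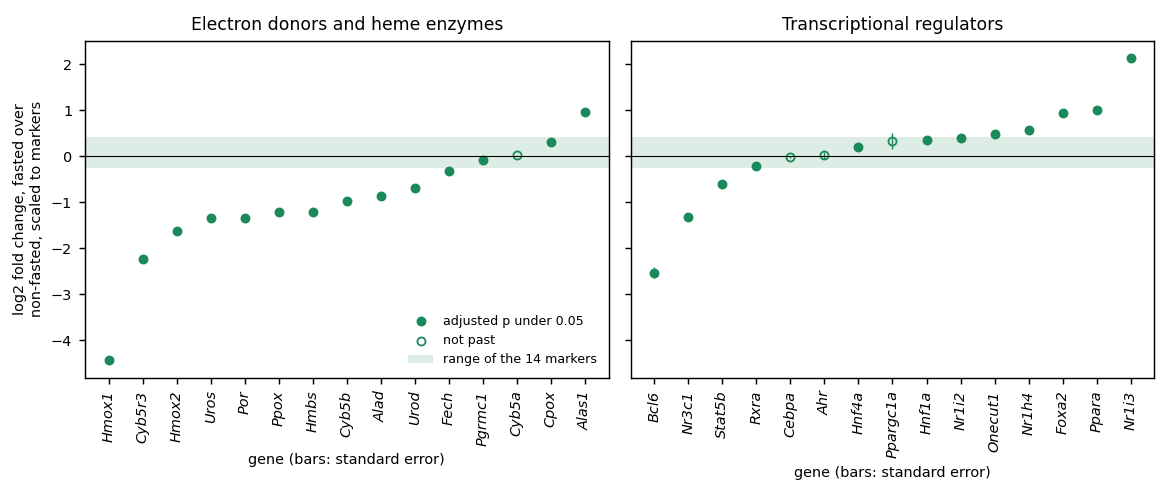
Log2 fold changes, fasted over non-fasted and scaled to 14 hepatocyte markers, of 15 genes for electron donors and heme (left) and 15 regulators of P450 genes (right), each sorted by value. Bars are standard errors, open points did not pass the test and the band is the range of the markers. On the left 12 genes are called lower, as are 91.7% of all genes, down to Hmox1 at -4.42, and on the right Nr1i3 stands highest at 2.13.

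For comparison, 43 other protein-coding Cyp genes, Cyp2w1 included, gave 31 tested, of which 21 were higher and 8 lower by the median of ratios and 10 were higher and 20 lower on the marker scale, with medians of 1.24 and -0.61. Over all genes tested 37.4% were higher and 45.3% lower by the median of ratios, and 3.96% higher and 91.7% lower on the marker scale. The folds of these other Cyp genes reached further than those of Cyp2 and Cyp3a on both sides, from Cyp11a1, the side-chain cleavage enzyme of steroid synthesis, at -12.76 to the fatty acid hydroxylase Cyp4a14 at 5.90 on the marker scale. Cyp11a1 had 1 and 1 fasted against 8229 and 8395 non-fasted counts. Neither the part of the trophoblast RNA in these counts nor the difference between the families was tested.

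Calls on the marker scale rest on a very small spread between the paired libraries. With a coefficient of variation of 0.2 assumed between samples, 5 of the 14 higher and 6 of the 13 lower calls held. These were Cyp2c38, Cyp2e1, Cyp2j9, Cyp3a25 and Cyp3a59 as higher and Cyp2ab1, Cyp2b10, Cyp2c55, Cyp2c70, Cyp2s1 and Cyp2u1 as lower. At 0.4 only Cyp2c38 and Cyp2j9 held as higher and Cyp2ab1 and Cyp2s1 as lower, and the call of Cyp2e1 was lost. With a minimum fold of 2, Cyp2c38, Cyp2j9 and Cyp3a25 held as higher and Cyp2ab1, Cyp2c70 and Cyp2s1 as lower, again without Cyp2e1.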

How the data were processed

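Liver RNA was sequenced in 2 fasted and 2 non-fasted libraries, grouped by their titles. The authors deposited raw counts per Entrez gene, 1 file per library, with no normalization. Tools in the submitters' processing notes are FastQC, MultiQC, Trimmomatic, STAR, featureCounts and DESeq2 1.32.0, and the build is GRCm39. The counting options for strand and for reads that fit several genes were not given in the sources used here. Counts of near-copies may be split or lost. Of 27179 identifiers 1904 had no name in the RefSeq table of the earlier build GRCm38.p6, which served for names and upstream sequences. Transcript lengths and shared 50-base windows came from GENCODE transcripts of that build.

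The analysis ran in R 4.3.3, using edgeR 4.0.16 and, for alternatives, DESeq2 1.42.0 and limma 3.58.1. Genes passing filterByExpr (15470) were scaled by the median of ratios. The main test was the two-sided quasi-likelihood test of edgeR, adjusted after Benjamini-Hochberg over all genes at 0.05. Trended dispersions were raised to at least 2e-04, below which the deviance of edgeR is inexact for abundant genes. Log2 fold changes are those of the fit, with standard errors from its weights, and normalized counts are counts divided by size factors. The fit was also run on simulated data with known folds, which lacked the difference in RNA make-up between these groups. Depth was 13528015 to 36975921 counts per library. The pairs of a group differed slightly more than counting error, with a squared deviation per gene of 1.11 and 1.13, where 1 is counting error alone, and were kept as 2 libraries each. The common biological coefficient of variation was 0.00988.

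The 56 genes, the gene lists, the markers and the tests were chosen with earlier results of these data known. All members are accounted for. Full statistics are given for the most counted gene, the largest rise and the largest fall of a subfamily and for a fixed set of well-known members, and of the lists for up to 3 most counted genes and those against their list, with a few further genes picked after their values were seen. Alternatives were other scalings, filters, tools, assumed spreads, a minimum fold, a replicate block, leaving out each library and thinning. Python 3.11.15 and matplotlib 3.10.9 drew the figures.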

Additional observations from a re-analysis of the deposited data

How the results depend on the processing

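The counts of 34 higher and 2 lower Cyp2 and Cyp3a genes moved by over 1.5 times under 1 alternative alone, the scaling to 14 hepatocyte markers, with 14 higher and 13 lower. Under it the log2 fold change of 15 called genes changed sign, of which 11 passed the test as lower and 4 (Cyp2a22, Cyp2c69, Cyp2d12 and Cyp2j5) did not pass. The values were -0.12 (Cyp2a12), -0.04 (Cyp2a22), -1.11 (Cyp2b10), -0.29 (Cyp2c29), -1.10 (Cyp2c55), -0.25 (Cyp2c67), -0.04 (Cyp2c69), -1.19 (Cyp2c70), -0.33 (Cyp2d12), -0.53 (Cyp2d40), -0.39 (Cyp2f2), -0.01 (Cyp2j5), -0.22 (Cyp2j6), -0.33 (Cyp2r1) and -0.75 (Cyp2u1). The lists of electron donors and heme (13 and 2 to 2 and 12), regulators (14 and 1 to 8 and 4) and other P450 families (21 and 8 to 10 and 20) moved with it, by construction of the scale. Leaving out each library gave 31 to 34 higher and 2 lower, and the calls lost were of Cyp2b10 and Cyp2c55, as given above, of Cyp2c69 without fasted library 1 or 2 (2.10 and 1.51) and of Cyp2d12 without fasted library 2 or non-fasted library 1 (1.03 and 1.31). DESeq2 gave 33 and 2, total counts 32 and 2, and an assumed coefficient of variation of 0.4 gave 28 and 2. With the replicate block the counts were 34 and 2, and no call changed. Deviations of same-numbered libraries had a correlation of -0.00511 over 11348 genes. Since these deviations were close in size to counting error alone, the correlation cannot show whether the numbers pair libraries. On the marker scale, with alternatives chosen after the data had been seen, leaving out each library gave 12 to 13 higher and 13 lower. DESeq2 gave 12 and 12, an assumed coefficient of variation of 0.2 gave 5 and 6, one of 0.4 gave 2 and 2, and a minimum fold of 2 gave 3 and 3. Depth limits the 20 untested genes, whose highest count was 13.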

Other observations

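Several pseudogenes of these families, which the rule leaves out, were counted. Cyp2d13 had 2731 and 2622 counts with fasting and 454 and 474 without, at a log2 fold change of 4.48 by the median of ratios and 2.63 against the hepatocyte markers (edgeR adjusted p = 1.2e-14 and 7.3e-24). Cyp2d37-ps had 567 and 538 against 124 and 124 counts, at 4.11 and 2.25. Both folds exceed those of the 6 tested coding Cyp2d genes, which ran from -0.53 to 0.31 on the marker scale. Cyp2c53-ps went the other way on the marker scale, with 7 and 3 against 16 and 13 counts, at 0.41 and -1.42. Reads of coding copies counted under these pseudogenes were not tested for.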
